A study of Mus musculus with 12 samples.

Results

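The matrix remodelling genes described here are 10 mouse genes for enzymes and proteins that cut, protect, build or crosslink the extracellular matrix: the metalloproteinase genes Mmp8, Mmp9, Mmp12, Mmp13, Mmp14 and Mmp19, the inhibitor genes Timp1 and Timp2, the fibronectin gene Fn1 and the transglutaminase gene Tgm2. They were chosen by symbol from the 19549 rows of the gene count files, with earlier results of these data known. All 10 were found and passed the filter on low counts. The cells were macrophages grown from the bone marrow of naive female FVB mice and given IFNG at 200 units/mL or IL4 at 40 ng/mL for 4 h, with no untreated group analysed here. About 10% of each cell population served for total mRNA, and the rest was run over a 5 to 50% sucrose gradient to collect messages carrying more than 3 ribosomes, called polysome-associated mRNA. Each of the 4 groups (IFNG polysome, IFNG total, IL4 polysome and IL4 total) held 3 SmartSeq2 libraries. The labels give neither the age of the mice nor the origin of the replicates (separate mice, cultures or repeat preparations). The p-values therefore describe the scatter of these 12 libraries, part of which may be technical.

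Metalloproteinases are zinc-dependent endopeptidases, most of them secreted as inactive precursors, that cut collagens, elastin, fibronectin and other matrix proteins. TIMP proteins bind the active enzymes and block them, and macrophages make members of both families during inflammation and tissue repair. IL4 signals mainly through STAT6, and alternatively activated macrophages are known for products that deposit and reorganise matrix, while classically activated macrophages are known for inflammatory ones. Transglutaminase 2 crosslinks proteins, and fibronectin is a glycoprotein scaffold on which cells and other matrix proteins assemble.

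Library totals ran from 2563955 to 22014162 counts. Totals were 3189688 to 8789480 in the IFNG polysome group, 10443200 to 22014162 in IFNG total, 2563955 to 5546605 in IL4 polysome and 12348819 to 16603339 in IL4 total. Values are given as CPM, counts relative to the library total, after TMM scaling of the libraries, listed for replicates 1, 2 and 3 in that order. A level of 3 counts, the upper limit that a count of 0 allows, came to between 0.136 and 1.17 CPM depending on the library, and such limits cover counting error only. The mitochondrial leucyl-tRNA synthetase gene Lars2 took 1.78 to 29.3% of counts in IFNG polysome libraries and 0.341 to 2.00% in IFNG total, and 5.15 to 18.1% in IL4 polysome and 0.903 to 1.47% in IL4 total. Its part in the comparisons between fractions was examined only by leaving it out before scaling. The polarization genes stood apart by group, with Nos2 at 103 ± 37.0 CPM in IFNG total against 0.242 ± 0.419 in IL4 total, and Retnla at 0.154 ± 0.176 CPM in IFNG total against 4370.1 ± 1920.2 in IL4 total (SD, n = 3 each). All 10 macrophage markers passed the filter. They summed to 10429 to 16343 CPM in IFNG polysome against 7847 to 8691 CPM in IL4 polysome libraries, which did not overlap, and to 12422 to 24349 CPM in IFNG total against 7977 to 13910 CPM in IL4 total libraries, which did. Of the 10, Fcgr1 was called higher under IFNG in each fraction and Adgre1 and Mertk on polysomes, and the part of these levels in the members' values was not tested.

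Promoter sequences of the members that differed between IFNG and IL4 are shown where the RefSeq promoter table held them, which it did for 6 of the 10 genes (Mmp8, Mmp12, Mmp13, Mmp14, Timp1 and Timp2). Each runs 5′ to 3′ on the gene's strand from 250 bases before the transcription start to 50 after it, in build GRCm38.p6. Capitals mark matches to the motifs searched on both strands, which are TTCNNNNGAA (the spacing bound by STAT6), TGANTCA (AP-1), TTTCNNTTTC (interferon-stimulated response) and GGGNNNNNCC (NF-kB).
Mmp14, chr14:54431348-54431647, plus strand: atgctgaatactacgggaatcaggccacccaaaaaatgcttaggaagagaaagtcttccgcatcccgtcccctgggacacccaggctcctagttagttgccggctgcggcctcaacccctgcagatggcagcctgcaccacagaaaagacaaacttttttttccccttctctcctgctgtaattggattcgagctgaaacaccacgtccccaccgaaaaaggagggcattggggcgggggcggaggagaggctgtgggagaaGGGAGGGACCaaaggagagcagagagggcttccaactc
Mmp13, chr9:7272264-7272563, plus strand: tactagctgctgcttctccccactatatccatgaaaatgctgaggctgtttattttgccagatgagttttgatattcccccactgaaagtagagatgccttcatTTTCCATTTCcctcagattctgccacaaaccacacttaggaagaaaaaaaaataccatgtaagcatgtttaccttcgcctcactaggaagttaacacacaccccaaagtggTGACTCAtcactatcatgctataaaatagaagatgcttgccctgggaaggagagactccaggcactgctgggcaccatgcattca
Mmp12 first start, chr9:7344147-7344446, plus strand: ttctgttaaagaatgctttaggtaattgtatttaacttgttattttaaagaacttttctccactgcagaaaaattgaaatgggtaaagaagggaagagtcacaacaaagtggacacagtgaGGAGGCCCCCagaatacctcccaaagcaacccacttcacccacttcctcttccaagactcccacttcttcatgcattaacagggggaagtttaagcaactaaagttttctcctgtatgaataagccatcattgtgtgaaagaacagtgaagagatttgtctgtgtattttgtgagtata
Mmp12 second start, chr9:7347124-7347423, plus strand: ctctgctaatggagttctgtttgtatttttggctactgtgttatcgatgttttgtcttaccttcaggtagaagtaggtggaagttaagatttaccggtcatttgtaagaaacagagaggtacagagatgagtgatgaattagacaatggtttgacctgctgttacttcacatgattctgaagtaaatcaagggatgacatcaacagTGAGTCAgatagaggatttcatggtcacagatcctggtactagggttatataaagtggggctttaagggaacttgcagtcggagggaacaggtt
Timp2, chr11:118355362-118355661, minus strand: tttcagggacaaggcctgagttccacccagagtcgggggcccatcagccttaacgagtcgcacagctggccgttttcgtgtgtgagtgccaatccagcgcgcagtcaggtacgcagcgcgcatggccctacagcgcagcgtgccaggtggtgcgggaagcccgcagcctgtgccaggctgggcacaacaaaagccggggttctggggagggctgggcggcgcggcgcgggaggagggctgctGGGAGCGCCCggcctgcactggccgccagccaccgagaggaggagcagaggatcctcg
The Mmp13 promoter held the AP-1 letters TGACTCA from base -35 and the interferon-stimulated response letters from base -146. The second Mmp12 start held the AP-1 letters TGAGTCA from base -44. The remaining capitals, in Mmp14, Timp2 and the first Mmp12 start, mark NF-kB matches, a loose pattern found in 50.8% of all 32851 promoters of this length. The AP-1 letters were in 7.81% of all promoters and the interferon-stimulated response letters in 3.44%. No STAT6 match (6.95% of all promoters) lay in these windows, and the Mmp8 window held none of the 4 motifs. Overlapping NF-kB matches were counted as separate matches, as in the Timp1 promoter. A match is a description of letters in this window and not of binding.

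The first question was how the members differed between IFNG and IL4 macrophages. Mmp14, Mmp13 and Tgm2 were higher in IFNG macrophages, and Fn1, Mmp12 and Timp2 were lower, in total mRNA and in polysome-associated mRNA alike. Mmp8, Mmp9, Mmp19 and Timp1 did not pass the test in either fraction. Thus 3 of 10 members were higher and 3 lower in total mRNA, where edgeR's quasi-likelihood test called 7.08% of all 10421 tested genes higher and 3.93% lower at an adjusted p under 0.05. On polysomes the counts were again 3 higher and 3 lower, beside 7.54% and 6.58% of all tested genes. Since the members were chosen with earlier results of these data known, these counts are a description and not a test against those shares. The members' median log2 fold change was -0.21 in total mRNA against 0.04 over all tested genes, and -0.58 on polysomes against -0.06. In bulk samples such as these, fewer cells expressing a gene and less RNA per cell cannot be told apart.

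**Figure D1:**
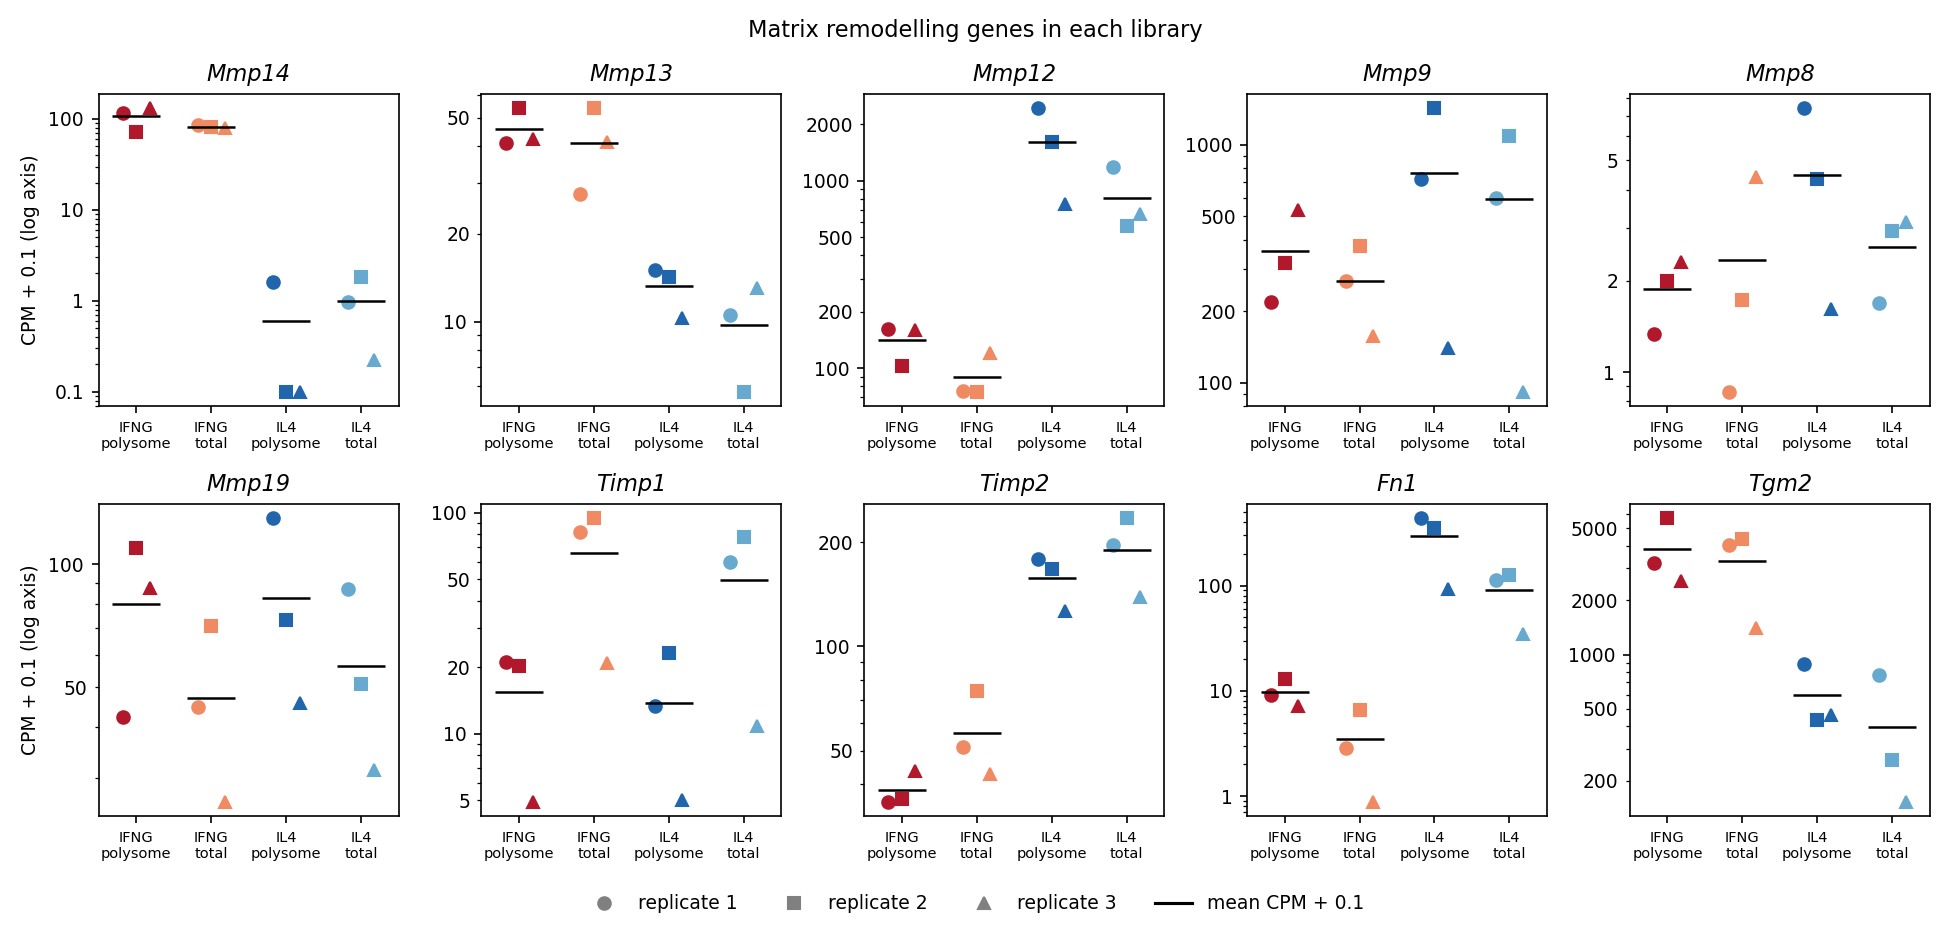
Level of each of the 10 genes in each of the 12 libraries, as CPM + 0.1 on a log axis, by group; symbols mark the replicate number and horizontal lines the mean of 3 libraries. IFNG and IL4 libraries of the same fraction do not overlap for Mmp14, Mmp13, Mmp12, Timp2, Fn1 and Tgm2, and do for the other 4 genes.

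Mmp14 encodes MT1-MMP, a membrane-anchored collagenase that also activates the precursor of MMP2, and it had the widest gap between the cytokines of the 10 genes. The gene lies at chr14:54431598-54442456. In total mRNA it had 84.8, 80.8 and 79.6 CPM in IFNG libraries, against 0.870, 1.72 and 0.127 CPM in IL4 libraries. On polysomes it had 115, 72.5 and 133 CPM in IFNG libraries, against 1.5, 0 and 0 CPM in IL4 libraries. Every IFNG library was high, and those of total mRNA lay close together while those of polysomes were more spread. The gene had few counts under IL4, with 42 in all over the 3 total libraries and 11 over the 3 polysome libraries. The fitted log2 fold change was 6.47 ± 0.73 (SE) in total mRNA (adjusted p = 1.31e-06) and 7.16 ± 0.80 on polysomes (adjusted p = 1.73e-06). The size of these folds rests on those few IL4 counts, and was 7.35 in total mRNA without IL4 total replicate 2 and 13.01 on polysomes without IL4 polysome replicate 1.

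Mmp13, the interstitial collagenase of rodents, lies at chr9:7272514-7283333. It had 27.4, 54.1 and 41.3 CPM in IFNG total libraries, against 10.4, 5.64 and 12.9 CPM in IL4 total libraries. Its polysome-associated mRNA stood at 40.9, 53.8 and 42.1 CPM in IFNG libraries, against 15.0, 14.2 and 10.2 CPM in IL4 libraries. The lowest IFNG library stood above the highest IL4 library in each fraction. Mmp13 was 2.08 ± 0.43 log2 units (SE) higher in total mRNA (adjusted p = 0.00187) and 1.79 ± 0.43 higher on polysomes (adjusted p = 0.00722).

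Mmp12, the macrophage elastase, went the other way. It lies in the same metalloproteinase cluster as Mmp13, at chr9:7344397-7360461. In total mRNA it had 75.5, 74.7 and 119.8 CPM in IFNG libraries, against 1181, 572 and 666 CPM in IL4 libraries. In the polysome fraction the values were 161, 103 and 159 CPM in IFNG libraries, against 2458, 1616 and 749.6 CPM in IL4 libraries. All IFNG libraries lay far below all IL4 libraries. The mean of the IL4 libraries was 8.96 times that of the IFNG libraries in total mRNA and 11.4 times on polysomes. The fitted log2 fold change, IFNG over IL4, was -3.16 ± 0.49 (SE, adjusted p = 9.87e-05) in total mRNA and -3.51 ± 0.50 (adjusted p = 3.83e-05) on polysomes.

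Mmp8, the neutrophil collagenase and a further gene of the same cluster (chr9:7558429-7568486), had 4 to 54 counts a library. It had 0.761, 1.63 and 4.32 CPM in IFNG total libraries, against 1.60, 2.82 and 3.04 CPM in IL4 total libraries. On polysomes it had 1.23, 1.89 and 2.22 CPM in IFNG libraries, against 7.36, 4.25 and 1.51 CPM in IL4 libraries. The groups overlapped in each fraction. The log2 fold change was -0.16 in total mRNA (adjusted p = 0.946) and -1.39 on polysomes (adjusted p = 0.253), so no difference was detectable at this depth. The annotation places the unnamed gene model Gm31751 over the same stretch, and SmartSeq2 reads do not record strand.

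Mmp9, gelatinase B, is made by macrophages, neutrophils and osteoclasts and lies at chr2:164940326-164955850. It was well expressed but scattered, with 267, 376 and 158 CPM in IFNG total libraries, against 598, 1094 and 91.5 CPM in IL4 total libraries. Its polysome-associated mRNA stood at 219, 319.5 and 529.7 CPM in IFNG libraries, against 718, 1432 and 139.6 CPM in IL4 libraries. Replicates 1 and 2 were lower under IFNG than under IL4 in each fraction and replicate 3 was higher. IFNG over IL4 gave a log2 fold change of -1.15 ± 0.70 (SE, adjusted p = 0.387) in total mRNA and -1.10 ± 0.70 (adjusted p = 0.330) on polysomes, within the spread between replicates.

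Mmp19, a metalloproteinase of basement membrane substrates, was counted in a row shared with Tmem198b (chr10:128790910-128800827 for Mmp19), so reads of these genes cannot be told apart. The row had 44.7, 70.4 and 26.1 CPM in IFNG total libraries, against 86.9, 50.9 and 31.2 CPM in IL4 total libraries. In the polysome fraction the values were 42.2, 109.5 and 87.5 CPM in IFNG libraries, against 129.7, 72.9 and 45.8 CPM in IL4 libraries. The libraries of the cytokines were intermixed. The log2 fold change was -0.26 in total mRNA (adjusted p = 0.870) and -0.06 on polysomes (adjusted p = 0.954).

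Of the inhibitors, Timp2 was lower in IFNG macrophages. TIMP2 inhibits metalloproteinases and also takes part in the activation of pro-MMP2 by MT1-MMP, and its gene (chr11:118301061-118355411) overlaps Cep295nl in the annotation. In total mRNA it had 51.2, 74.1 and 42.7 CPM in IFNG libraries, against 196, 235 and 139 CPM in IL4 libraries. On polysomes it had 35.4, 36.2 and 43.6 CPM in IFNG libraries, against 178, 167 and 126 CPM in IL4 libraries. No IFNG library reached the lowest IL4 library in either fraction. IFNG over IL4 gave a log2 fold change of -1.76 ± 0.39 (SE, adjusted p = 0.00352) in total mRNA and -2.04 ± 0.40 (adjusted p = 0.00117) on polysomes. Within each fraction, therefore, Mmp14 was higher and Timp2 lower in every IFNG library than in any IL4 library.

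Timp1, a broad metalloproteinase inhibitor whose gene (chrX:20870166-20874737) lies within Syn1, did not differ detectably between the cytokines. It had 81.9, 94.8 and 20.7 CPM in IFNG total libraries, against 59.9, 77.8 and 10.7 CPM in IL4 total libraries. Its polysome-associated mRNA stood at 21.1, 20.2 and 4.80 CPM in IFNG libraries, against 13.2, 23.0 and 4.92 CPM in IL4 libraries. In all 4 groups replicate 3 was the low one, and the groups overlapped. The log2 fold change was 0.41 ± 0.65 (SE, adjusted p = 0.833) in total mRNA and 0.19 ± 0.68 (adjusted p = 0.898) on polysomes.

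Fn1, at chr1:71585473-71653280, encodes fibronectin and had the widest gap among the members that were lower under IFNG. In total mRNA it had 2.79, 6.51 and 0.777 CPM in IFNG libraries, against 114, 126 and 34.7 CPM in IL4 libraries. In the polysome fraction the values were 8.99, 12.8 and 7.02 CPM in IFNG libraries, against 439.5, 353 and 93.8 CPM in IL4 libraries. Replicate 3 was the lowest library in all 4 groups, and the IL4 libraries of replicate 3 still lay above every IFNG library of their fraction. The mean of the IL4 libraries was 27.2 times that of the IFNG libraries in total mRNA and 30.7 times on polysomes. IFNG over IL4 gave a log2 fold change of -4.79 ± 0.71 (SE, adjusted p = 5.07e-05) in total mRNA and -4.93 ± 0.71 (adjusted p = 4.00e-05) on polysomes. Without IFNG total replicate 2 the value in total mRNA was -5.71.

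Tgm2, at chr2:158116405-158146392, encodes transglutaminase 2, which crosslinks fibronectin and other proteins and is often used as a marker of IL4-activated macrophages. In these libraries it was higher under IFNG. It had 4058, 4393 and 1399 CPM in IFNG total libraries, against 775, 259 and 152 CPM in IL4 total libraries. On polysomes it had 3201, 5715 and 2567 CPM in IFNG libraries, against 889, 431 and 459.9 CPM in IL4 libraries. Tgm2 was well counted under both cytokines, and the lowest IFNG library stood above the highest IL4 library in each fraction. The log2 fold change was 3.05 ± 0.60 (SE, adjusted p = 0.00122) in total mRNA and 2.69 ± 0.59 (adjusted p = 0.00324) on polysomes. Without IL4 total replicate 1 the value in total mRNA was 3.99.

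**Figure D2:**
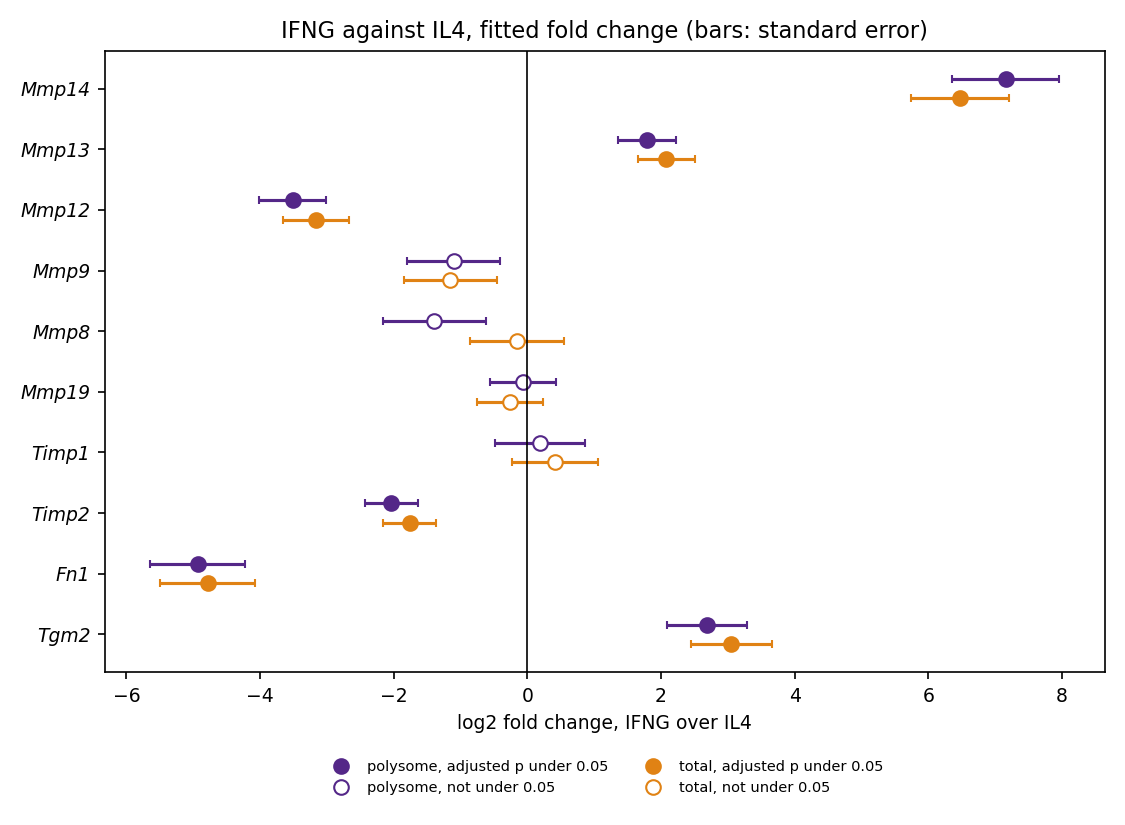
Fitted log2 fold change of IFNG over IL4 for each gene in polysome-associated mRNA (upper point of each pair) and total mRNA (lower point), with standard errors; filled points have an adjusted p under 0.05. Mmp14, Mmp13 and Tgm2 lie to the right of 0 and Mmp12, Timp2 and Fn1 to the left, with the points of the fractions close together.

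The labels give no pairing by replicate number, and some libraries of unlike numbers also deviated together. Those of IFNG and IL4 with the same number did so within each fraction, and their differences were set side by side. All 3 such differences had the sign of the fit for each of the 6 called genes in each fraction. That sign follows from the lack of overlap between the IFNG and IL4 libraries of these genes and is no further check. For Mmp14 they ran from 5.39 to 7.88 log2 units in total mRNA, and for Fn1 from -5.25 to -4.23. Of the remaining genes, only Timp1 in total mRNA had 3 differences of 1 sign, and these were small, from 0.28 to 0.94. In this measure, too, Mmp9 and Mmp8 were negative in replicates 1 and 2 and positive in replicate 3, in each fraction. The 6 called genes were also the members whose groups did not overlap, 3 above and 3 below in each fraction. Over all tested genes, 13.4% lay wholly above and 12.3% wholly below in total mRNA, and 15.2% and 16.0% on polysomes.

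**Figure D3:**
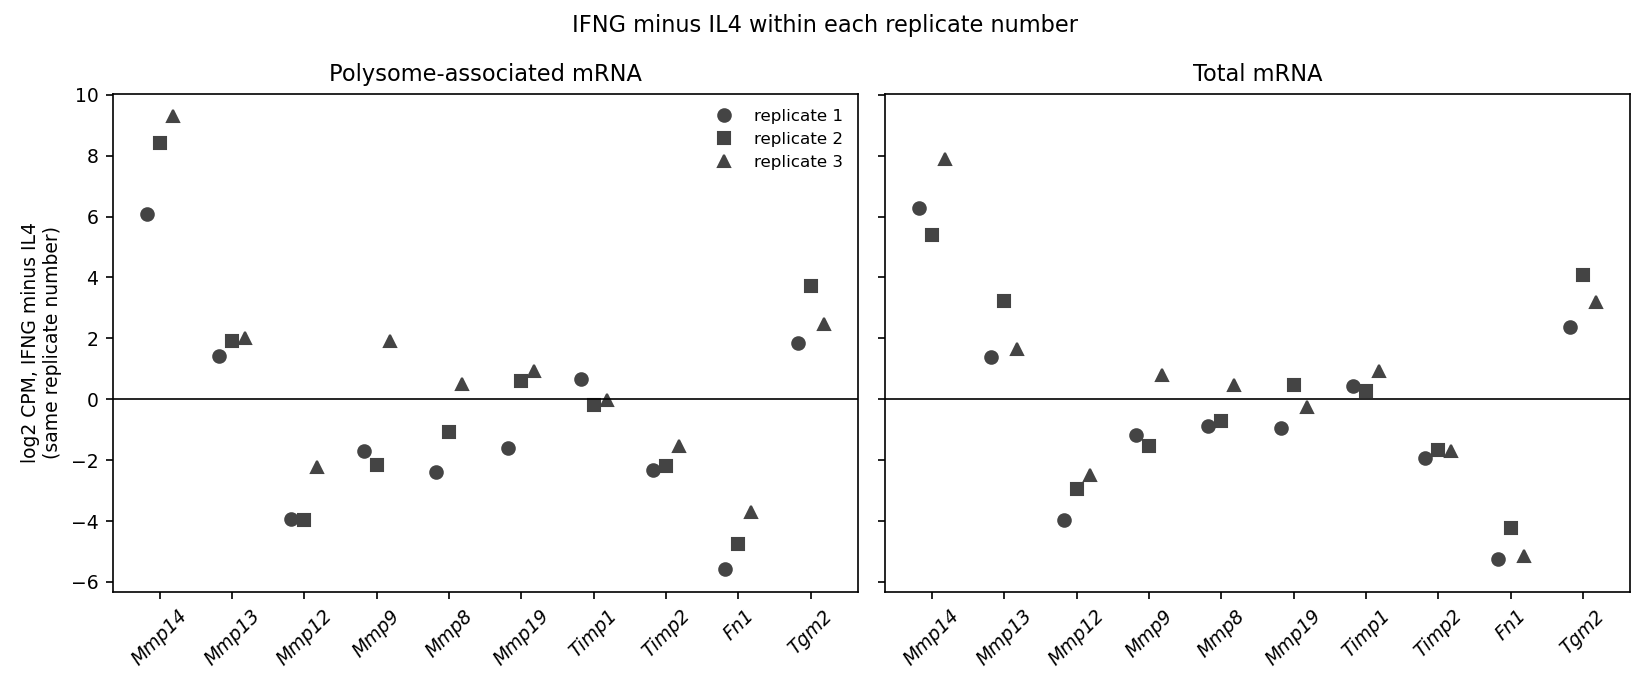
Difference in log2 CPM, IFNG minus IL4, between libraries of the same fraction and replicate number, for each of the 10 genes; the left panel shows polysome-associated and the right panel total mRNA. The 6 called genes keep 1 sign over the 3 numbers in each panel, and Mmp9 and Mmp8 change sign at replicate 3.

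The second question was which members were more or less represented on polysomes than in total mRNA of the same cytokine. Most were not detectably different. Timp1 was lower on polysomes in IFNG and in IL4 macrophages, and Fn1 was higher on polysomes in IL4 macrophages. In IFNG macrophages edgeR called 0 of 10 members higher and 1 lower, beside 8.93% and 17.0% of all tested genes. Fn1 alone was higher there at an unadjusted edgeR p under 0.05, and limma on the deposited log2 values called it (adjusted p = 0.0495). In IL4 macrophages 1 was called higher and 1 lower, beside 13.2% and 15.9%. These values compare shares of each library, not absolute amounts of message on ribosomes. The members' median log2 fold change was 0.30 in IFNG and 0.50 in IL4 macrophages, against 0.00 and 0.06 over all tested genes.

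Timp1 averaged 15.3 ± 9.14 CPM on polysomes against 65.8 ± 39.6 CPM in total mRNA under IFNG, and 13.7 ± 9.06 CPM on polysomes against 49.5 ± 34.8 CPM in total mRNA under IL4 (SD, n = 3 each). The fractions overlapped under each cytokine, with a low total library of replicate 3. The log2 fold change was -2.07 ± 0.68 (SE, adjusted p = 0.0287) under IFNG and -1.85 ± 0.68 (adjusted p = 0.0461) under IL4. The IFNG call was lost, at adjusted p from 0.0578 to 0.117, on leaving out any IFNG polysome library or IFNG total replicate 1 or 2. The IL4 call was lost, at adjusted p from 0.0516 to 0.194, on leaving out IFNG polysome replicate 1 or 2, IL4 polysome replicate 1 or 3, or IL4 total replicate 1 or 2. With limma on the deposited values both calls were lost (adjusted p = 0.0656 under IFNG and 0.127 under IL4), and with only the groups compared that of IL4 (0.0827).

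Fn1 averaged 9.61 ± 2.95 CPM on polysomes against 3.36 ± 2.91 CPM in total mRNA under IFNG, and 295 ± 179.9 CPM on polysomes against 91.4 ± 49.5 CPM in total mRNA under IL4 (SD, n = 3 each). Under IFNG the fractions did not overlap, and under IL4 the polysome library of replicate 3 fell among the total libraries. Polysome over total gave a log2 fold change of 1.55 ± 0.65 (SE, adjusted p = 0.0800) under IFNG and 1.69 ± 0.61 (adjusted p = 0.0408) under IL4. The IL4 call was lost, at adjusted p from 0.0510 to 0.171, on leaving out IFNG polysome replicate 1, IFNG total replicate 1, IL4 polysome replicate 1 or 2, or any IL4 total library. It was lost also with limma (adjusted p = 0.0883) and without Lars2 (0.0697). The IFNG value passed the test without IFNG total replicate 2 (2.47, adjusted p = 0.0160), with limma, with upper quartile scaling (0.0461), without a filter (0.0118) and with the 10 CPM filter (0.0401). With equal replicate numbers as a block in edgeR it passed too (adjusted p = 0.00580).

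The elastase gene Mmp12 had log2 fold changes of 0.65 ± 0.46 (SE) under IFNG (adjusted p = 0.309) and 1.00 ± 0.46 under IL4 (adjusted p = 0.103). Timp2 had values of -0.55 ± 0.39 under IFNG (adjusted p = 0.308) and -0.27 ± 0.38 under IL4 (adjusted p = 0.608). The other 6 genes had log2 fold changes between -0.37 and 0.86, none called. Fn1 under IFNG was the 1 member whose libraries did not overlap between fractions, where 17.4% of all tested genes lay wholly above and 18.8% wholly below. Under IL4 none of the 10 members was free of overlap, beside 23.4% and 25.7% of all tested genes.

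**Figure D4:**
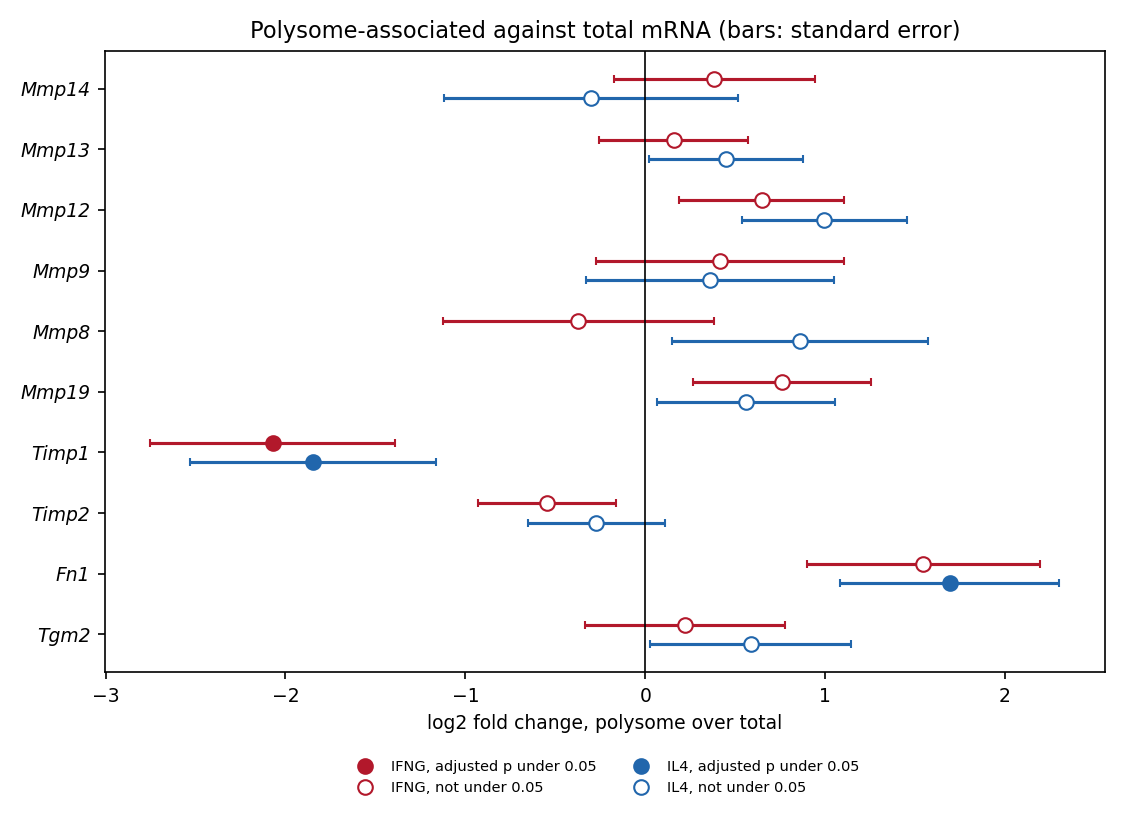
Fitted log2 fold change of polysome-associated over total mRNA for each gene under IFNG (upper point of each pair) and IL4 (lower point), with standard errors; filled points have an adjusted p under 0.05. Timp1 lies near -2 under each cytokine and Fn1 lies to the right of 1, while the other 8 genes stay within about 1 unit of 0.

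Whether the difference between IFNG and IL4 itself changed from total mRNA to polysomes was tested with an interaction term. It was called for 0 of the 10 members and for 0.00% of all tested genes in either direction by edgeR, where 62 genes were higher and 114 lower at an unadjusted p under 0.05. DESeq2 and limma each called 1 gene lower, which was not a member, and none higher. The members' values ran from -1.23 (Mmp8) to 0.68 (Mmp14), and the smallest unadjusted p was 0.246, for Mmp8. The standard errors, from 0.54 for Timp2 to 1.04 for Mmp8, bound how small a difference could have been seen. The median was -0.25 over the members and -0.10 over all tested genes.

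The counts of called genes in the lists below stand beside 7.08% of all tested genes higher and 3.93% lower in total mRNA. On polysomes these shares were 7.54% and 6.58%. No list was tested against them, and a count near them says nothing particular of its list. The lists, too, were chosen with earlier results of these data known. Among the other genes of the metalloproteinase family, the data resolved only a few. Of 17 listed, 12 did not pass the filter, and Mmp1a, Mmp1b, Mmp7 and Mmp20 had 0 counts in every library. Mmp25, which encodes the membrane-anchored leukolysin, was the 1 of 5 tested that was called in total mRNA, at 207 ± 97.1 CPM in IFNG against 0.687 ± 0.598 CPM in IL4 libraries (SD, n = 3 each; log2 fold change 8.23, adjusted p = 2.90e-08). On polysomes it was again higher, at 381 ± 184 CPM against 1.14 ± 0.0821 CPM (8.34, adjusted p = 5.04e-08). The stromelysin gene Mmp10, named after its values were seen, was lower on polysomes at 0.398 ± 0.422 CPM in IFNG against 4.54 ± 2.23 CPM in IL4 libraries (adjusted p = 0.0254). The inhibitor Timp3 was not called in either fraction (adjusted p = 0.197 in total mRNA and 0.148 on polysomes), with 9.38 ± 8.79 CPM in IFNG against 1.27 ± 1.47 CPM in IL4 total libraries. With equal replicate numbers as a block edgeR called it higher, at an adjusted p of 0.00225 in total mRNA and 0.00680 on polysomes.

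Of 10 tested ADAM and ADAMTS proteases, which shed membrane proteins or cut proteoglycans, 1 was higher in total mRNA and 2 on polysomes, and none was lower. Adam19 was called in each fraction, with a log2 fold change of 2.28 in total mRNA (adjusted p = 0.00819) and 2.96 on polysomes (adjusted p = 0.00173), and Adam17, counted in a row shared with Iah1, on polysomes (1.30, adjusted p = 0.0452). Of 6 tested genes of plasminogen and proprotein activation, 1 was higher in total mRNA and on polysomes, and none was lower. Plau, which encodes urokinase, had 558 ± 37.5 CPM in IFNG against 101 ± 23.1 CPM in IL4 total libraries, and 1355 ± 871 against 180.2 ± 40.9 CPM on polysomes (adjusted p = 0.000682 and 0.000148).

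Of the 4 tested cathepsin genes of matrix breakdown, 2 were lower in total mRNA, 1 was lower on polysomes and none was higher. Ctsl, a lysosomal protease, had 54.2 ± 28.2 CPM in IFNG against 447 ± 96.1 CPM in IL4 total libraries (adjusted p = 0.00529) and was the call on polysomes as well (-2.72, adjusted p = 0.0112). Ctsk, the cathepsin of osteoclasts, was the other call in total mRNA at 0.155 ± 0.269 against 2.89 ± 0.915 CPM (adjusted p = 0.0132), and this and the polysome value of Ctsl were named after their values were seen. Ctsb, counted in a row shared with Fdft1, was not called on polysomes (0.33, adjusted p = 0.680).

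Among receptors and partners of fibronectin, 2 of 11 tested were higher and 2 lower in total mRNA, and 2 were higher and 1 lower on polysomes. Itgb3, the beta 3 integrin subunit, had 0.435 ± 0.232 CPM in IFNG against 41.0 ± 10.0 CPM in IL4 total libraries (log2 fold change -6.45, adjusted p = 1.84e-08), and 1.31 ± 0.321 against 91.6 ± 10.6 CPM on polysomes (-6.12, adjusted p = 4.27e-08). Itgb5, the beta 5 subunit, was the other gene lower in total mRNA (-1.69, adjusted p = 0.00837), named after its values were seen. Itga4, counted in a row shared with Cerkl, and the syndecan gene Sdc3 were higher in each fraction, by 2.05 and 2.01 log2 units in total mRNA (adjusted p = 0.00570 and 0.0101) and by 2.45 and 2.93 on polysomes (adjusted p = 0.00163 and 0.000519).

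Of 25 tested genes of other matrix proteins, 2 were higher in total mRNA, 1 was higher on polysomes and none was lower. Vcan, which encodes the proteoglycan versican, was called in each fraction, with 38.6 ± 28.1 CPM in IFNG against 3.85 ± 3.29 CPM in IL4 total libraries (adjusted p = 0.00103) and 99.4 ± 35.2 against 13.6 ± 5.73 CPM on polysomes (adjusted p = 0.00347). Ecm1 was the second in total mRNA (1.66, adjusted p = 0.0250), named after its values were seen. Of 11 tested transglutaminases and collagen crosslinking enzymes other than Tgm2, P4ha1, a prolyl hydroxylase subunit, was the 1 called, higher by 1.59 log2 units in total mRNA (adjusted p = 0.0100) and 1.32 on polysomes (adjusted p = 0.0288). None of the 3 tested hyaluronan genes was called in either fraction, with Hyal2 at 0.40 in total mRNA (adjusted p = 0.765) and Cemip2 at 0.98 on polysomes (adjusted p = 0.138).

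Of the 4 tested receptors that take up matrix fragments, Mrc1, the mannose receptor, was the 1 called between the cytokines. It had 86.7 ± 32.2 CPM in IFNG against 550.3 ± 179.9 CPM in IL4 total libraries (adjusted p = 0.000323), and 229 ± 83.7 against 2029.8 ± 624 CPM on polysomes (adjusted p = 6.31e-05). Between fractions, Mrc1, Lrp1 and Stab1 (counted in a row shared with Nt5dc2) were higher on polysomes under each cytokine, by 1.40, 2.14 and 1.44 log2 units under IFNG and by 1.88, 2.28 and 1.74 under IL4. In the TGF-beta pathway, 2 of 18 tested genes were higher in total mRNA, beside 7.08% of all tested genes. On polysomes 5 were higher and 1 lower, beside 7.54% and 6.58%. Tgfbr1, the type I receptor, had 144 ± 42.1 CPM in IFNG against 26.3 ± 1.63 CPM in IL4 total libraries (2.46, adjusted p = 0.000371), and Smad6, an inhibitory Smad, was the other (2.37, adjusted p = 0.00481). On polysomes both were called again (2.95 and 2.30) with Smad3 (1.76, adjusted p = 0.0300), Smad7 (1.62) and Skil (1.46), and Ltbp4 was the lower one (-3.11). Of these, Smad7, Skil and Ltbp4 were named after their values were seen.

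Several of these calls were lost on leaving out 1 library. In total mRNA the calls of Mmp25, Plau, Ctsl, Itgb3, Itga4, Vcan, Mrc1, Tgfbr1 and Smad6 were kept on leaving out any library and under every other alternative in which the gene was tested. Those of Itgb5 and P4ha1 were lost without IL4 total replicate 2 (adjusted p = 0.0572 and 0.0590), those of Adam19 and Sdc3 without IFNG total replicate 2 or IL4 total replicate 3 (up to 0.122, for Sdc3), that of Ctsk without IFNG total replicate 1 or IL4 total replicate 2 (up to 0.0636), and that of Ecm1 without IFNG total replicate 1 or 2 or IL4 total replicate 2 or 3 (up to 0.139). Adam19 was lost also with the libraries thinned to the smallest total (adjusted p = 0.161). On polysomes the calls of Mmp25, Adam19, Plau, Itgb3, Itga4, Sdc3, Vcan, Mrc1 and Tgfbr1 were kept likewise. Leaving out IL4 polysome replicate 2 ended those of Mmp10, Adam17, P4ha1, Smad6, Smad3, Smad7 and Skil. Without IL4 polysome replicate 3 those of Adam17, P4ha1, Smad3, Smad7 and Skil were lost, and without IL4 polysome replicate 1 those of Mmp10, Ctsl and Ltbp4. The same held for Mmp10, Smad3 and Ltbp4 without IFNG polysome replicate 1, for Adam17, Ctsl, P4ha1, Smad3, Smad7 and Ltbp4 without replicate 2 of that group, and for Mmp10, Adam17, Ctsl, Smad6 and Smad7 without its replicate 3. Adam17 was lost also without IL4 total replicate 1 or 2, and its adjusted p reached 0.219, the largest of these 9 genes. Some values that kept their call on leaving out 1 library moved by over 1.5 times in fold. In total mRNA Mmp25 was 9.18 without IL4 total replicate 1, Ctsk -7.82 without IFNG total replicate 2, Itgb3 -7.09 without IFNG total replicate 1, Vcan 2.55 without IFNG total replicate 2 and 4.24 without IL4 total replicate 3, and Ecm1 2.28 without IL4 total replicate 1. On polysomes Mmp10 was -4.10 without IFNG polysome replicate 2, Plau 2.31 without IFNG polysome replicate 3, Ctsl -4.41 without IFNG polysome replicate 1 and Smad3 2.80 without IL4 polysome replicate 1.

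**Figure D5:**
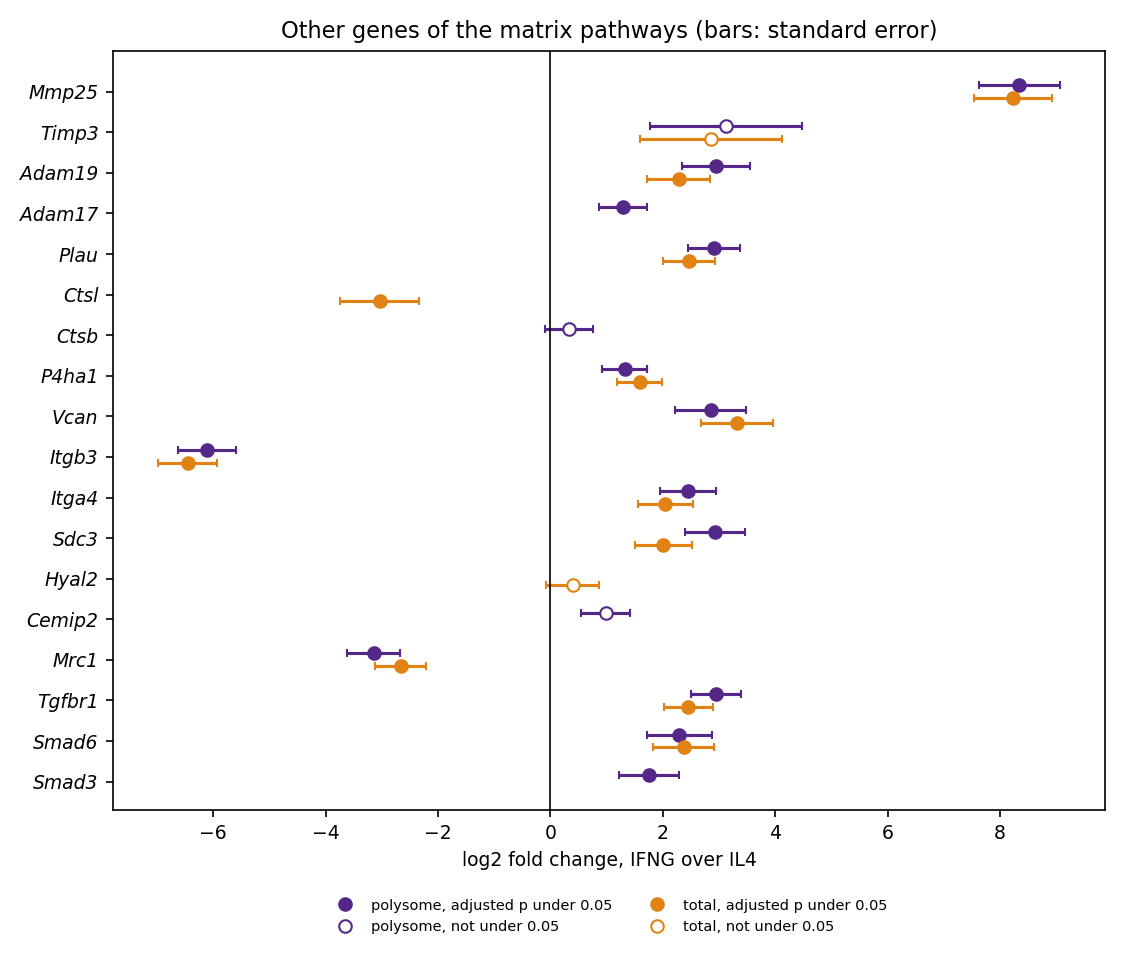
Fitted log2 fold change of IFNG over IL4 for the named genes of other matrix pathways in polysome-associated mRNA (upper point) and total mRNA (lower point), with standard errors; filled points have an adjusted p under 0.05, and a gene is drawn in the fractions in which it was named. Mmp25 lies beyond 8, Itgb3 beyond -6, and Ctsl and Mrc1 near -3.

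Between the fractions, Mmp24, a membrane-type metalloproteinase, was lower on polysomes under each cytokine, at 3.55 ± 3.58 CPM on polysomes against 34.2 ± 10.5 CPM in total mRNA under IFNG (adjusted p = 0.000729) and 2.93 ± 0.310 against 41.3 ± 12.02 CPM under IL4 (adjusted p = 0.000225). The urokinase receptor gene Plaur was likewise lower on polysomes, with log2 fold changes of -2.06 under IFNG (adjusted p = 0.0146) and -2.12 under IL4 (adjusted p = 0.0126). Adam9 was higher on polysomes under each cytokine (1.68 and 2.09), as were the laminin genes Lamc1 (2.12 and 1.88) and Lamb2 (1.60 and 1.67), whereas the row of the basement membrane gene Nid2, shared with 2700060E02Rik, was lower (-2.24 and -2.55), in each pair with IFNG first. Under IFNG the calls of Mrc1, Stab1, Plaur, Lamb2 and Nid2 were lost without IFNG polysome replicate 2, those of Mrc1, Stab1 and Lamb2 without IFNG polysome replicate 3, and those of Mrc1, Stab1, Plaur and Adam9 without IFNG total replicate 1 (adjusted p up to 0.131, for Plaur). Without IFNG polysome replicate 1 the IFNG values of Mmp24 and Nid2 were -4.45 and -3.82, and without IL4 polysome replicate 1 the IL4 value of Plaur was -2.90. Under IL4 that of Plaur was lost without IL4 polysome replicate 2 or 3 or IL4 total replicate 1 (up to 0.114), and that of Lamb2 without IL4 total replicate 1 (0.0522).

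The genes whose profiles over the 12 libraries lay nearest to those of the called members are given as a description, with the root mean square difference of centred log2 CPM among 6983 genes of at least 10 CPM. Enpp1 (0.39), Rnf150 (0.51) and Idh1 (0.62) lay nearest to Mmp12. Acsl4 (0.28), Aim1 (0.35) and Rufy3 (0.36) lay nearest to Mmp13, and Haus8 (0.42), Atp6v0a1 (0.44) and Anxa2 (0.44) to Timp2. For Tgm2 they were Sema4a (0.42), Rasa4 (0.54) and Pfkfb3 (0.55). The matches of Mmp14, namely Entpd1 (0.90), Cxcl10 (0.91) and Acod1 (0.93), and of Fn1, namely Itgb3 (1.00), Il1rl1 (1.11) and Itgax (1.23), were looser. Entpd1 had 527 CPM in IFNG polysome, 310.3 in IFNG total, 3.99 in IL4 polysome and 3.68 in IL4 total libraries on average. All 12 libraries share the cytokine groups, so a small difference mainly records the same pattern over those groups.

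Some markers of other cells that make these proteins had counts, while others of the same lists had few or none. The 14 neutrophil and granule markers, of which 5 passed the filter, summed to 49.7 to 68.4 CPM in IFNG total against 13.2 to 57.3 CPM in IL4 total libraries, and to 38.3 to 44.3 CPM against 16.3 to 23.4 CPM on polysomes. Lcn2 and S100a9 were higher under IFNG in total mRNA and Lcn2 on polysomes, while the defining granulocyte genes Elane, Ctsg and Ly6g had 9, 7 and 4 counts over all libraries. Lcn2 and S100a9 moved in the same direction as Mmp25, a gene known from neutrophils. Retnlg, below the filter, went the other way, with 0.0701 CPM in IFNG against 3.52 CPM in IL4 polysome libraries on average. Csf3r averaged 32.8 CPM in IFNG against 28.1 CPM in IL4 total libraries and was not called in either fraction. The part of neutrophils in the difference of Mmp25 was not tested. The 8 osteoclast markers summed to 143 to 197 CPM in IFNG total against 164 to 300.3 CPM in IL4 total libraries and to 141 to 208 against 214 to 236 CPM on polysomes, with Calcr at 0. Of the 6 tested, Atp6v0d2 was called lower under IFNG in each fraction and the other 5 were not called. Among these 5, Tnfrsf11a had log2 fold changes of 0.04 in total mRNA and 0.75 on polysomes, and Nfatc1 of 0.16 and -0.70. Acp5, Ocstamp and Dcstamp had negative values in each fraction. Osteoclasts also make Mmp9, Itgb3 and Ctsk, and the part of these cells in those values was not tested.

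The 11 stromal markers, which bear on Fn1, Mmp14 and Timp2, summed to 8.64 to 33.8 CPM in IFNG total against 10.3 to 23.4 CPM in IL4 total libraries, and to 2.59 to 55.3 against 6.81 to 15.9 CPM on polysomes. The groups overlapped, none of the 4 tested markers was called between the cytokines, and Lum and Lepr had 0 counts. The 6 megakaryocyte and platelet markers summed to 337 to 767 CPM in IFNG total against 559.8 to 1158 CPM in IL4 total libraries, and to 37.6 to 118 against 247 to 432 CPM on polysomes. Pf4 held most of this sum and was called lower under IFNG on polysomes (adjusted p = 0.0276), and Itgb3 is itself 1 of the 6. Ppbp, Gp1bb, Itga2b and Gp9 had only 72, 38, 19 and 1 counts over all libraries, against 61691 for Pf4. The 7 dendritic cell markers summed to 8.50 to 26.9 CPM in IFNG total against 0.552 to 1.60 CPM in IL4 total libraries, and to 17.3 to 44.8 against 0.681 to 2.12 CPM on polysomes, with Clec9a and Xcr1 called higher in each fraction and Flt3 at 0. Zbtb46 and Cd209a, below the filter, went the other way, at 0.400 and 0 CPM in IFNG against 0.623 and 0.205 CPM in IL4 total libraries on average. Siglech and Ccr7 had 28 and 8 counts over all libraries. The 5 endothelial markers summed to 54.8 to 93.9 CPM in IFNG total against 31.2 to 71.1 CPM in IL4 total libraries, and to 105 to 164 against 53.3 to 119 CPM on polysomes, with Tek at 0. Kdr was called higher under IFNG in total mRNA and on polysomes (adjusted p = 0.00876 and 0.00464), and Pecam1 lower on polysomes (0.0410). The part of these cells in the members' values was not tested.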

How the data were processed

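The data are 12 SmartSeq2 libraries of bone marrow-derived macrophages, 3 in each of 4 groups read from the labels. The authors deposited unnormalized read counts by gene symbol and, beside them, a TMM-normalized log2 value for 11006 rows, per the file headers; HISAT2, limma and the build mm10 are named in the submitters' processing notes, while the strand setting and the annotation were not given in the sources used here. Some rows (830 of 19549) join several symbols that share reads. From the counts, features passing filterByExpr (10421) were scaled with TMM and fitted with edgeR 4.0.16 in R 4.3.3 (robust quasi-likelihood, 1 model over all 12 libraries, no covariate), with Benjamini-Hochberg adjustment over all tested features at 0.05, checked on simulated data. The standard error is the absolute log2 fold change over the square root of F. Levels of different genes were not compared, since no transcript lengths were used. Alternatives were DESeq2 1.42.0, limma 3.58.1 on the deposited log2 values, other scalings and filters, a replicate block, only the groups compared, removal of Lars2, thinning to 2563955 counts and leaving out each library.

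Equal replicate numbers deviated together between IFNG and IL4 (r from 0.153 to 0.745 in total mRNA and from 0.153 to 0.352 on polysomes, over 6984 features). Unlike numbers gave r from -0.696 to 0.395 in total mRNA and from -0.370 to 0.229 on polysomes. The ranges overlap, so the data pair the numbers only in part, and the labels do not pair them. No libraries were duplicates (chi-square per degree of freedom 35.0 to 362). Named genes are all members and, per companion list, up to 3 called genes with the largest fold change, at least 10 CPM in 1 group and no overlap between groups, or else the tested gene with the highest CPM. Between the fractions only some of the companion genes that this rule gives are reported, and the counts of calls kept cover those alone. The values of P4ha1, Cemip2 and Ski, called higher on polysomes under each cytokine, are among those left out. For each called member the 3 nearest profiles are named. Coordinates are RefSeq gene positions in GRCm38. The members and lists were chosen with earlier results of these data known. Some items of the companion lists and promoter motifs are not reported here, and the counts given leave them out.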

Additional observations from a re-analysis of the deposited data

How the results depend on the processing

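Under all 22 alternatives run, the 6 members called between IFNG and IL4 kept their direction and their call in each fraction, with adjusted p at most 0.0429 (Mmp13 on polysomes). Upper quartile scaling moved the median of all genes by -0.12 log2 units in total mRNA and by 0.16 between the fractions of IFNG, where higher genes then made up 45.8% of calls against 34.5%. Removing Lars2 moved it by 0.12 between cytokines on polysomes and by -0.20 between the fractions of IL4, where higher genes made up 32.0% of calls against 45.3%. The 10 CPM filter gave 45.6%, and fitting only the groups compared 23.1% with 483 higher genes, between the fractions of IFNG. Mmp19 on polysomes, uncalled throughout, changed sign to 0.0279 with the 10 CPM filter, 0.0431 with only the groups compared, 0.0548 without Lars2 and 0.0865 with the replicate block, which changed no member's call between cytokines. Between the fractions of IFNG, Fn1 became the 1 member called higher with upper quartile scaling, limma, no filter, the 10 CPM filter and the replicate block (1.80, adjusted p = 0.00580), limma called 0 lower, and Mmp8 was 0.0161 with limma. Each cell population gave both fractions, but the labels do not tie the replicate numbers to populations, and the main fit used no pairing. Between fractions, equal numbers gave r from -0.0732 to 0.430 in IFNG and from 0.0163 to 0.396 in IL4. Unlike numbers gave r from -0.480 to 0.175 in IFNG and from -0.194 to 0.0965 in IL4. These values do not settle whether the numbers pair the fractions. Between the fractions of IL4, limma called 0 higher and 0 lower, removal of Lars2 0 higher, and only the groups compared 0 lower. The interaction gave 1 higher and 4 lower genes without a filter, 1 lower with DESeq2 and 1 lower with limma. Leaving out a library gave 237 to 481 lower genes between cytokines in total mRNA, and 496 to 1001 higher and 351 to 960 lower on polysomes. Between fractions it gave 297 to 1201 higher and 935 to 2014 lower in IFNG, and 515 to 1471 higher and 1004 to 2045 lower in IL4, with 0 to 1 members higher and 0 to 1 lower each time. Uncalled genes that changed sign were Mmp8 (-1.12 to 0.21), Mmp19 (-0.73 to 0.19), Timp1 (-0.0674 to 0.90) and Hyal2 (-0.0840 to 0.79) in total mRNA, Mmp19 (-0.36 to 0.43) and Timp1 (-0.19 to 0.74) on polysomes, Mmp8 (-0.72 to 0.60) and Tgm2 (-0.19 to 0.56) between the fractions of IFNG, and Mmp9 (-0.47 to 1.14) and Mmp14 (-6.15 to 0.57) in IL4. The lowest Mmp14 value arose without IL4 polysome replicate 1, the only IL4 polysome library with counts of the gene. Of the called values named in the other matrix pathways, 9 of 15 in total mRNA, 9 of 18 on polysomes, 3 of 9 between the fractions of IFNG and 7 of 9 in IL4 were kept under every alternative that tested them, and none changed sign. The inhibitor Timp3 became called without a filter and with the replicate block in each fraction, and on polysomes with only the groups compared. In that fit Mrc1 and Stab1 lost their call between the fractions of IFNG. Other causes were not tested.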
